A study of Mus musculus with 4 samples.

Results

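The expression of 10 retinoic acid genes was measured by RNA-seq in mouse larynx tissue at E10.5. The genes were chosen by name from the 46983 gene IDs in the tables, for their roles in making, removing, carrying and sensing retinoic acid. They encode the synthesis enzymes *Rdh10*, *Aldh1a2* and *Aldh1a3*, the breakdown enzymes *Cyp26a1* and *Cyp26b1*, the binding proteins *Crabp1* and *Crabp2*, and the receptors *Rara*, *Rarb* and *Rarg*. The comparison was between 2 pools of *Shh*-/- larynxes and 2 pools of wild-type (WT) larynxes, each pool holding 3 larynxes from embryos of 32 to 35 somites. It asks how the tissue differs when Sonic hedgehog, a signal secreted by the foregut epithelium, is lost. The mutants carried *Shh*tm1amc, a germline null allele kept on a Swiss Webster background, and the WT embryos were Swiss Webster. The sample labels write the mutant pools as *Shh*+/-, whereas the series design and the paper give *Shh*-/-, and the latter was used. Pools are named below by their label numbers, *Shh*-/- pools 1 and 2 and WT pools 4 and 6. The loss is present in every cell of the embryo and the tissue was dissected whole, so the values do not separate cell types.

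Retinoic acid is a small lipid signal made from vitamin A. RDH10 oxidizes retinol to retinaldehyde, and the ALDH1A enzymes oxidize retinaldehyde to retinoic acid. Enzymes of the CYP26 family inactivate retinoic acid by oxidation and so set where in the embryo it can act. Inside cells it is carried by CRABP proteins and bound by nuclear retinoic acid receptors, which pair with retinoid X receptors on DNA. *Cyp26a1* and *Rarb* are themselves classical targets of these receptors, and retinoic acid made in the mesoderm around the foregut is known to act in the growth of the respiratory tract.

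Values are given as TPM, a transcript level that is scaled for gene length and sums to 1000000 in each library, so genes can be compared with each other. Differences are in log2(TPM + 1), *Shh*-/- minus WT, a scale that shrinks the differences of genes near 0. Tests were by limma across 16972 genes with a mean of at least 1 TPM, with Benjamini-Hochberg adjustment and a threshold of 0.05. The aligned sequence was 1372 and 3128 megabases in *Shh*-/- pools 1 and 2 and 2845 and 2972 megabases in WT pools 4 and 6, so *Shh*-/- pool 1 was the shallowest. *Shh* itself was measured at 10.4 and 10.8 TPM in the mutants and at 23.7 and 42.1 TPM in WT (log2 difference -1.49 ± 0.28 SE; adjusted p = 0.0895). The hedgehog target *Ptch1* fell from 57.8 and 55.1 TPM in WT to 12.9 and 13.8 TPM in the mutants (-2.00 ± 0.12 SE; adjusted p = 0.0319).

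Transcript levels of cell type markers also differed between the genotypes. Over all tested genes 0.725% passed the threshold and 24.8% had an unadjusted p under 0.05, and the counts of each list stand beside these shares. Of 9 tested splanchnic mesenchyme markers 7 were lower in the mutants, 1 of them past the threshold (*Foxf2*). The summed level of the list was 142 and 174 TPM in the mutants beside 288 and 265 TPM in WT. *Pdgfra* alone, named after its values were seen, held 106 and 105 TPM of the mutant sums and 82.6 and 103 TPM of the WT sums. Of 12 neuron markers 11 were higher, 7 past the threshold, with sums of 931 and 1008 TPM against 329 and 275 TPM. Cardiac and striated muscle markers were higher for 8 of 9 tested genes, 2 of them past the threshold. Their sums were 195 and 308 TPM against 90.6 and 95.6 TPM, and *Nppa* was listed at 0 in every library. The lower tested gene was *Nkx2-5*, at 5.97 and 4.73 TPM in the mutants against 18.5 and 13.6 TPM in WT. Neural crest markers were higher for 8 of 9 tested genes (1 called; sums of 241 and 206 TPM against 174 and 143 TPM), and endothelial markers for 8 of 8 (1 called; 411 and 482 TPM against 292 and 277 TPM). Mesothelial markers were higher for 6 of 9 tested genes and erythroid markers for 0 of 10, none of either list past the threshold by limma, with 3 mesothelial and 0 erythroid genes at an unadjusted p under 0.05. Mesothelial sums were 130 and 201 TPM in the mutants against 192 and 180 TPM, and erythroid sums were 11852 and 17963 TPM against 16238 and 18396 TPM. Foregut epithelium markers, which mark only the epithelial part of the tissue named on the labels, were detected in every library. Of these, 6 of 10 were higher and 4 lower in the mutants, 0 called (limma, with 5 at an unadjusted p under 0.05). Their sums were 699 and 606 TPM against 640 and 644 TPM. The sums hide unlike members, named here after their values were seen. *Foxa2*, a transcription factor of the foregut endoderm, stood at 5.34 and 9.12 TPM in the mutants and at 29.2 and 39.8 TPM in WT (-2.13 ± 0.29 SE; adjusted p = 0.0602), and *Nkx2-1*, a transcription factor of the respiratory and thyroid endoderm, stood at 6.16 and 3.61 TPM against 15.9 and 17.9 TPM (-1.64 ± 0.25 SE; adjusted p = 0.0715). *Foxa1* stood at 14.5 and 15.6 TPM in the mutants and at 25.6 and 37.8 TPM in WT, whereas the adhesion gene *Epcam* stood at 123 and 101 TPM and at 90.3 and 86.4 TPM. The part of these differences in the results below was not tested, and in bulk tissue fewer cells of a type and less RNA per cell cannot be told apart.

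The *Shh*-/- pools had more transcript of 7 of the 10 genes and less of 3, and the 2 genotypes did not overlap for any of them. Non-overlap is common with 2 pools a side: it was found for 60.7% of all tested genes. The test called 1 of the 10 genes, *Cyp26a1*, against 0.725% of all tested genes. At an adjusted p under 0.10 the count was 6 of 10, with 5 higher (*Cyp26a1*, *Cyp26b1*, *Crabp1*, *Crabp2* and *Rarg*) and 1 lower (*Rarb*), against 5.06% of all tested genes. These counts describe the genes and include *Aldh1a3*, which passed the filter on low levels only through the mutant pools. The median log2 difference of the 10 genes was 0.60, beside 0.08 for all tested genes. Centring each library on its median moved the all-gene median to -0.05. None of the 10 genes changed sign under centring or any other alternative that was run. An exact permutation of single values in 2 against 2 pools cannot go below p = 0.33, so the tests rest on the spread shared across genes.

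**Figure D1:**
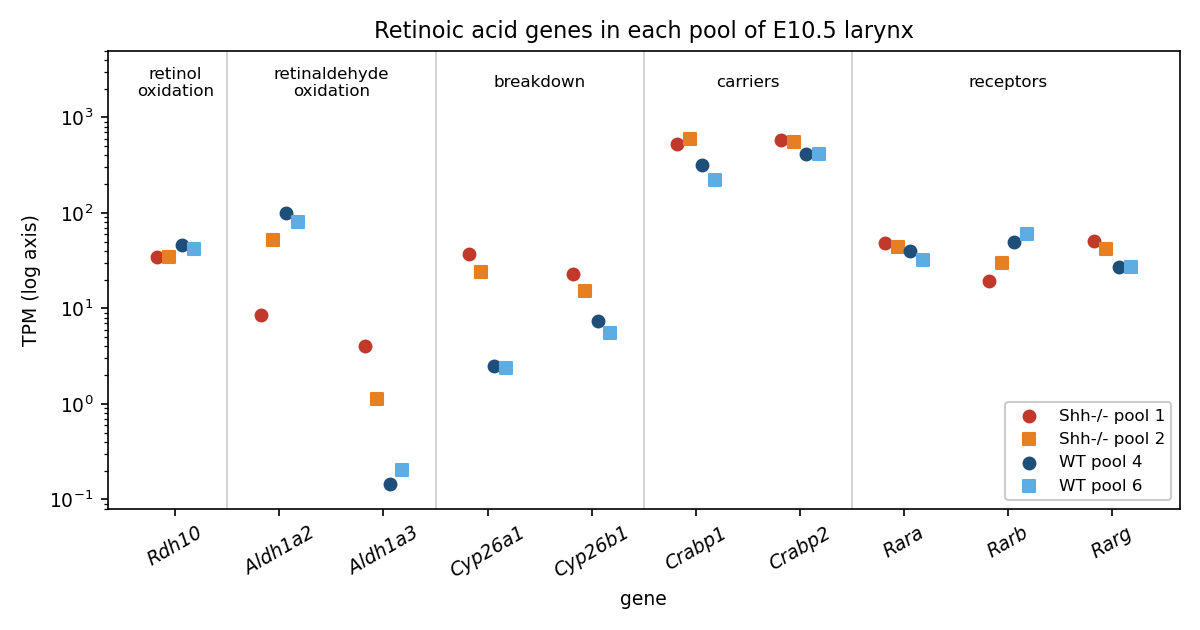
Level of each gene in every library (TPM, log axis); each point is 1 pool, with *Shh*-/- pools in red and orange and WT pools in blue, and the genes are grouped by role. The points of the genotypes are separated for all 10 genes, and the 2 *Shh*-/- points are far apart for *Aldh1a2* (8.52 and 52.6 TPM) and close together for *Rdh10* (34.8 and 34.9 TPM).

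Of the synthesis enzymes, *Rdh10* differed little between the genotypes, *Aldh1a2* was lower in the mutants with a wide spread between their pools, and *Aldh1a3* was higher from a very low level in WT. *Rdh10* (mm10 chr1:16105774-16133734, plus strand), which makes retinaldehyde from retinol, stood at 34.8 and 34.9 TPM in *Shh*-/- pools 1 and 2 and at 46.2 and 41.5 TPM in WT pools 4 and 6. Both mutant pools were below both WT pools, by a small margin. The means were 34.9 ± 0.0734 and 43.9 ± 3.31 TPM (SD, n = 2 each), a log2 difference of -0.32 ± 0.12 SE with a 95% interval from -0.62 to -0.02, and limma did not call it (adjusted p = 0.184).

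*Aldh1a2* (chr9:71215789-71296243, plus strand) encodes the main retinoic acid-making enzyme of early embryonic mesoderm. It stood at 8.52 TPM in *Shh*-/- pool 1, 52.6 TPM in *Shh*-/- pool 2, 99.2 TPM in WT pool 4 and 80.7 TPM in WT pool 6. Both mutant pools were lower than both WT pools, but the mutant pools themselves were 6.18-fold apart, and only 45 of the tested genes (0.265%) had a larger log2 gap between these 2 pools. The means were 30.6 ± 31.2 and 89.9 ± 13.1 TPM (SD, n = 2 each), and the log2 difference was -2.00 ± 0.81 SE with an interval from -4.08 to 0.08 (adjusted p = 0.211). Without *Shh*-/- pool 1 the difference was -0.75 (adjusted p = 0.231), and without *Shh*-/- pool 2 it was -3.25 (adjusted p = 0.0699). The size of the difference therefore rested on which mutant pool was used. *Foxf1*, a splanchnic mesenchyme marker and hedgehog target, showed a gap of similar size and direction between the mutant pools, with 0.848 and 9.57 TPM in *Shh*-/- pools 1 and 2. Of the other markers of that list, all but *Pdgfra* were also lower in *Shh*-/- pool 1 than in pool 2, by unlike amounts. *Wnt2* stood at 0.604 and 5.04 TPM, *Osr1* at 11.5 and 21.8 TPM and *Barx1* at 18.9 and 20.5 TPM. *Pdgfra* stood at 106 and 105 TPM and made up most of the list's sum of 142 and 174 TPM. The markers named here were picked after their values were seen. The part of these markers in the *Aldh1a2* values was not tested.

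*Aldh1a3* (chr7:66390892-66427517, minus strand), a related enzyme best known from the eye and nasal region, had the opposite direction and a low level. It stood at 3.99 and 1.13 TPM in *Shh*-/- pools 1 and 2 and at 0.144 and 0.203 TPM in WT pools 4 and 6, so it entered the test only through the mutant pools. The log2 difference was 1.47 ± 0.45 SE with an interval from 0.31 to 2.63 (adjusted p = 0.151), and it was 3.04 with a pseudocount of 0.1 (adjusted p = 0.127) and 0.86 without *Shh*-/- pool 1 or 2.09 without *Shh*-/- pool 2. The higher of the mutant pools was pool 1, the pool in which *Aldh1a2* was lowest.

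*Aldh1a1*, the other member of the ALDH1A family, was the most abundant of the 3 in the mutants. It stood at 108 and 158 TPM in *Shh*-/- pools 1 and 2 and at 98.6 and 56.7 TPM in WT pools 4 and 6 (0.80 ± 0.32 SE; adjusted p = 0.210), although its reads may be shared with the near copy *Aldh1a7*. Summed over *Aldh1a1*, *Aldh1a2* and *Aldh1a3*, the family reached 120 and 212 TPM in the mutant pools and 198 and 138 TPM in WT, and the genotypes overlapped. The share of that sum from *Aldh1a2* was 7.08% and 24.8% in *Shh*-/- pools 1 and 2, below the 50.1% and 58.6% of WT pools 4 and 6. The share from *Aldh1a1* was 89.6% and 74.7% in the mutants, above the 49.8% and 41.2% in WT. These shares are descriptions of the 4 libraries and carry no test.

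Transcripts of both breakdown enzymes were higher in the *Shh*-/- pools, and those of *Cyp26a1* alone passed the threshold. *Cyp26a1* (chr19:37697808-37701528, plus strand), which inactivates retinoic acid and is induced by it in many embryonic tissues, stood at 37.0 and 24.2 TPM in *Shh*-/- pools 1 and 2 and at 2.50 and 2.35 TPM in WT pools 4 and 6. Both mutant pools lay far above both WT pools, and the WT pools were nearly the same. The means were 30.6 ± 9.07 and 2.42 ± 0.105 TPM (SD, n = 2 each), a 12.6-fold difference in TPM. *Cyp26a1* rose by 3.17 ± 0.24 SE on the log2 scale, with an interval from 2.56 to 3.79, and it was the only one of the 10 genes past the threshold (limma, adjusted p = 0.0323). The mean read coverage, computed from FPKM and the aligned sequence, was 24.3 and 37.6 reads per base in the mutant pools and 3.56 and 3.49 reads per base in the WT pools. The call was lost without any one of the 4 pools (log2 differences from 2.88 to 3.47, adjusted p from 0.0699 to 0.132) and when no filter on low levels was used (adjusted p = 0.146).

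*Cyp26b1* (chr6:84571414-84593908, minus strand), the family member known for limiting retinoic acid in limb and skeletal tissues, stood at 22.7 and 15.2 TPM in *Shh*-/- pools 1 and 2 and at 7.33 and 5.59 TPM in WT pools 4 and 6. The mutant pools were again both higher. The means were 19.0 ± 5.32 and 6.46 ± 1.23 TPM (SD, n = 2 each), 2.94-fold apart, with a log2 difference of 1.41 ± 0.25 SE and an interval from 0.77 to 2.05, which missed the threshold (limma, adjusted p = 0.0819).

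The third family member, *Cyp26c1* (chr19:37685581-37693398, plus strand), lies beside *Cyp26a1* on the chromosome. It is not one of the 10 genes and was taken from the list of other pathway genes described further on. It stood at 8.15 and 4.82 TPM in *Shh*-/- pools 1 and 2, was listed at 0 in WT pool 4 and stood at 0.116 TPM in WT pool 6. It rose by 2.79 ± 0.29 SE on the log2 scale, with an interval from 2.03 to 3.55 (limma, adjusted p = 0.0459), and like *Aldh1a3* it entered the test only through the mutant pools. The size of this difference depended on the scale, being 5.44 with a pseudocount of 0.1 (adjusted p = 0.0581) and 1.99 with FPKM in place of TPM (adjusted p = 0.0441). Besides the smaller pseudocount, the call was lost without any one of the pools (2.46 to 3.11, adjusted p from 0.0733 to 0.168), with a correction for GC content and length (2.48, adjusted p = 0.0602) and with no filter (adjusted p = 0.146), and at a mean of at least 5 TPM it was not tested.

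Together the 3 CYP26 genes summed to 67.9 and 44.2 TPM in *Shh*-/- pools 1 and 2 and to 9.83 and 8.05 TPM in WT pools 4 and 6. The leading transcript of the family differed between the genotypes. *Cyp26b1* made up 74.6% and 69.4% of the sum in the WT pools and 33.5% and 34.4% in the mutant pools, whereas *Cyp26a1* made up 25.4% and 29.2% in the WT pools and 54.5% and 54.6% in the mutant pools. Although the summed level of the mutant pools differed, their shares were nearly the same. Set against synthesis, *Aldh1a2* transcript was 10.1 and 10.0 times the CYP26 sum in WT pools 4 and 6, but 0.125 and 1.19 times that sum in *Shh*-/- pools 1 and 2. With all 3 ALDH1A genes in place of *Aldh1a2*, the ratio was 20.1 and 17.1 in the WT pools and 1.77 and 4.80 in the mutant pools. The genotypes were apart on either ratio, but non-overlap was found for 60.7% of all tested genes. Both ratios divide by the CYP26 sum, and the ALDH1A sum alone overlapped between the genotypes. These are ratios of transcript levels, and neither enzyme activity nor retinoic acid itself was measured.

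**Figure D2:**
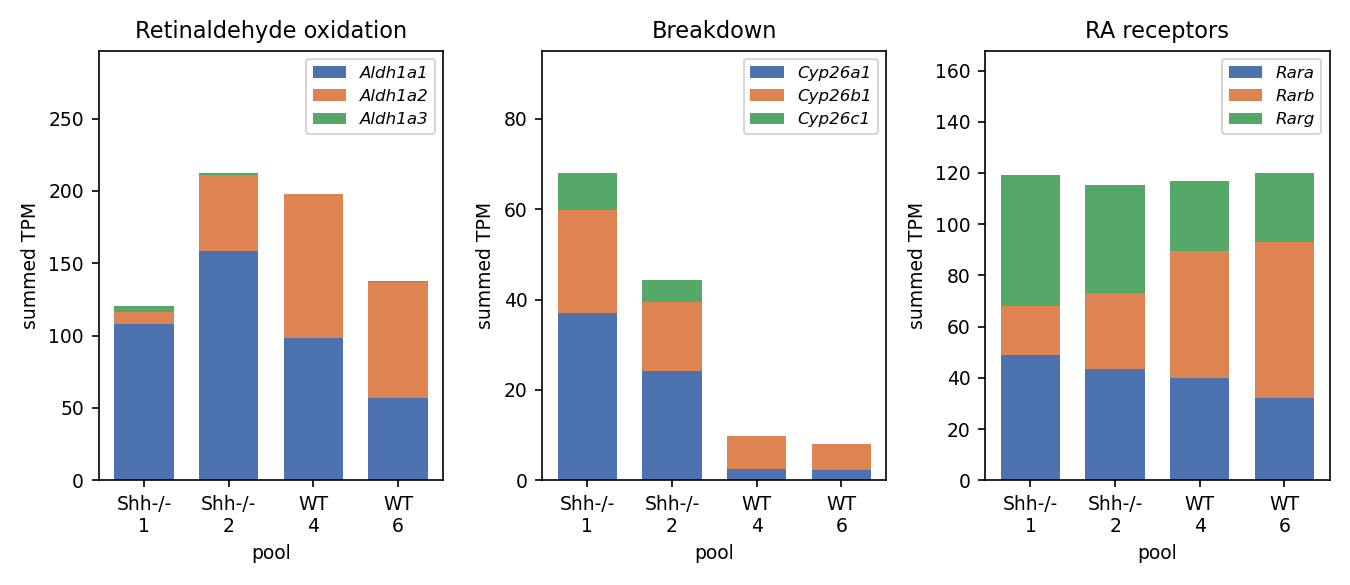
Summed TPM of the ALDH1A, CYP26 and RAR genes in each library, with each bar starting at 0 and split by gene. The CYP26 bars of the *Shh*-/- pools (67.9 and 44.2 TPM) are taller than those of the WT pools (9.83 and 8.05 TPM), whereas the RAR bars have similar heights, from 115 to 120 TPM, and differ in the part taken by *Rarb*.

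The sequence before the start of *Cyp26a1* is shown because it is the gene past the threshold and because it holds a repeat of the kind that retinoic acid receptors bind. RefSeq windows of 250 bases before to 50 bases after the annotated start (GRCm38.p6) were available for 7 of the 10 genes. They were searched on both strands for direct repeats of a 6-base site with a spacer of 5 bases, 2 bases or 1 base. The site could read AGGTCA or, as variants of it, AGTTCA or else GGGTCA or else GGTTCA. The repeat with the 5-base spacer was in the windows of 2 of the 7 genes, *Cyp26a1* and *Rarb*, and in those of 31 of 27025 genes in the whole table (0.115%). Of the lists described further on, it was in 0 of 35 other pathway genes and 0 of 11 retinoic acid-responsive genes with a window. The repeats with the 2-base and the 1-base spacer were in none of the 7, against 0.311% and 0.263% of all genes. The 120 bases of *Cyp26a1* below (chr19:37697678-37697797, plus strand) end shortly before its RefSeq start and before its first annotated exon. Overlap with other genes was not checked. Capitals mark the repeat, at chr19:37697776-37697792, which lies 16 to 32 bases upstream and reads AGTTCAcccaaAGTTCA on the strand opposite to the gene.
Cyp26a1: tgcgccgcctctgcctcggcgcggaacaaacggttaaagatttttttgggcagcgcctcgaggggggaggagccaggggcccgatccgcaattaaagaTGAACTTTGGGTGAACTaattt
The *Rarb* repeat (chr14:16575513-16575529, minus strand, the strand of the gene) lies 37 to 53 bases upstream of its RefSeq start, over 2 annotated exons of the gene. It is printed with 6 bases on either side (chr14:16575507-16575535), again with the repeat in capitals.
Rarb: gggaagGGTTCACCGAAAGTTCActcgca
The 2 genes with this repeat differed in opposite directions between the genotypes, as the values of *Cyp26a1* above and of *Rarb* below show. A match of letters describes the window and does not show that a receptor binds there. Both genes were already known as targets of these receptors, as given above, so the count of 2 among 7 is a description only.

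Both carriers were abundant and higher in the mutants. *Crabp1* (chr9:54764748-54773110, plus strand), which binds retinoic acid in the cytoplasm and marks neural crest and neurons in the embryo, stood at 522 and 592 TPM in *Shh*-/- pools 1 and 2 and at 322 and 222 TPM in WT pools 4 and 6. The lower mutant pool was well above the higher WT pool. The means were 557 ± 49.6 and 272 ± 70.3 TPM (SD, n = 2 each), 2.05-fold apart, with a log2 difference of 1.05 ± 0.20 SE and an interval from 0.55 to 1.56 (adjusted p = 0.0888). Neuron and neural crest markers were also higher in both mutant pools, as given above, and their part in the *Crabp1* values was not tested.

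*Crabp2* (chr3:87948666-87953376, plus strand), which hands retinoic acid to its receptors in the nucleus, stood at 577 and 553 TPM in *Shh*-/- pools 1 and 2 and at 416 and 414 TPM in WT pools 4 and 6. The means were 565 ± 16.9 and 415 ± 0.987 TPM (SD, n = 2 each), 1.36-fold apart, and the log2 difference of 0.44 ± 0.08 SE, with an interval from 0.23 to 0.66, also missed the threshold (adjusted p = 0.0887). It was 0.32 after median centring. The sum of both carriers was 1099 and 1146 TPM in the mutant pools and 737 and 637 TPM in WT. *Crabp1* was 0.904 and 1.07 times *Crabp2* in the mutants and 0.773 and 0.536 times *Crabp2* in WT.

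The receptors differed in opposite directions, with a sum that was nearly the same in all 4 pools. *Rarb* (chr14:16430842-16575472, minus strand), the receptor gene most readily induced by retinoic acid, was lower in the mutants. It stood at 19.3 and 29.6 TPM in *Shh*-/- pools 1 and 2 and at 49.8 and 60.9 TPM in WT pools 4 and 6, with no overlap. The means were 24.4 ± 7.28 and 55.3 ± 7.79 TPM (SD, n = 2 each), so WT was 2.27-fold higher, and the log2 difference was -1.17 ± 0.23 SE with an interval from -1.78 to -0.57 (adjusted p = 0.0957). Leaving out one pool at a time gave differences from -1.47 to -0.88.

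*Rarg* (chr15:102234938-102257517, minus strand), the receptor associated with cartilage and skin, was higher in the mutants. It stood at 51.1 and 42.3 TPM in *Shh*-/- pools 1 and 2 and at 27.0 and 26.9 TPM in WT pools 4 and 6. The means were 46.7 ± 6.27 and 27.0 ± 0.0859 TPM (SD, n = 2 each), 1.73-fold apart, with a log2 difference of 0.76 ± 0.14 SE and an interval from 0.41 to 1.12 (adjusted p = 0.0855). With the correction for GC content and length it was 0.44 (adjusted p = 0.213).

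*Rara* (chr11:98927818-98974942, plus strand), the most widely expressed of the receptors, had the smallest difference among them. It stood at 48.8 and 43.7 TPM in *Shh*-/- pools 1 and 2 and at 39.9 and 32.0 TPM in WT pools 4 and 6, a log2 difference of 0.36 ± 0.15 SE with an interval from -0.03 to 0.75 (adjusted p = 0.224). With the correction for GC content and length the difference was 0.01 (adjusted p = 0.958).

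Summed, the 3 receptors were at 119 and 115 TPM in *Shh*-/- pools 1 and 2 and at 117 and 120 TPM in WT pools 4 and 6. Within that sum *Rarb* took 16.2% and 25.6% in the mutants and 42.7% and 50.8% in WT, and was the most abundant receptor transcript in both WT pools and the least abundant in both mutant pools. *Rarg* took 42.9% and 36.6% in the mutants and 23.2% and 22.5% in WT. *Rara* took 41.0% and 37.8% in the mutants and 34.1% and 26.7% in WT.

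**Figure D3:**
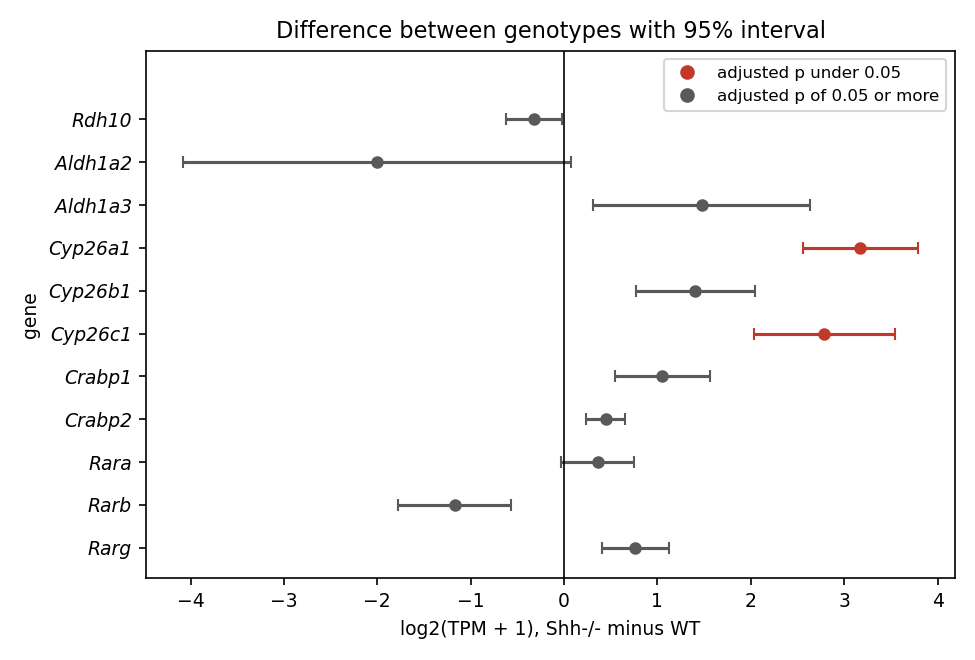
Difference in log2(TPM + 1) between *Shh*-/- and WT for the 10 genes and *Cyp26c1*; points are limma estimates and bars their 95% intervals, with red for an adjusted p under 0.05. *Cyp26a1* (3.17) and *Cyp26c1* (2.79) are the red points, and the interval of *Aldh1a2* is the widest, from -4.08 to 0.08.

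The order of the levels differed between the genotypes. In WT it ran, by mean TPM, from *Crabp2* through *Crabp1*, *Aldh1a2*, *Rarb*, *Rdh10*, *Rara*, *Rarg*, *Cyp26b1* and *Cyp26a1* to *Aldh1a3*, and no neighbours in this order overlapped between their 2 pools. In *Shh*-/- larynxes *Crabp2* and *Crabp1* overlapped, as did *Rarg* and *Rara*. *Cyp26a1*, the ninth gene in the WT order, overlapped *Rdh10*, *Aldh1a2* and *Rarb* in the mutants. There *Aldh1a2* also overlapped *Rdh10*, *Cyp26b1* and all 3 receptors, and *Cyp26b1* overlapped *Rarb*. *Aldh1a3* was the lowest in both genotypes.

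Across all tested genes, those whose centred log2 profile over the 4 libraries was nearest to that of *Cyp26a1*, by Euclidean distance, were *Crym* (0.17), *Zic2* (0.22) and *Alx4* (0.27). *Crym*, which encodes a thyroid hormone-binding crystallin, stood at 69.6 and 46.1 TPM in *Shh*-/- pools 1 and 2 and at 6.52 and 5.31 TPM in WT pools 4 and 6. Nearest to *Aldh1a2* were *Emp1* (0.35), the microRNA gene *AC124457.1* (0.55) and the small nucleolar RNA gene *Snord83b* (0.57). *Emp1*, which encodes a membrane protein of epithelia and other tissues, shared the low value of *Shh*-/- pool 1, with 5.55 and 33.8 TPM in the mutant pools and 49.1 and 46.7 TPM in WT. With 4 libraries of 2 groups many profiles are alike, so these names are a description only.

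The other genes of the pathway lay on both sides of 0. Of 43 listed genes of retinoid uptake, conversion, carriage and reception, 30 were tested, 18 with a log2 difference above 0 and 12 below. The test called 1 as higher and 0 as lower, where 0.725% of all tested genes were called, and the called gene, *Cyp26c1*, was among those tested only through the mutant pools, so its call is a description of the list and no support. At an unadjusted p under 0.05 there were 6 of the 30, where the share over all tested genes was 24.8%. The median log2 difference was 0.06, beside 0.08 for all tested genes, and *Rbp3*, *Rdh7*, *Rdh9* and *Rdh16* were listed at 0 in every library.

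The abundant genes of other roles named here showed no called difference. *Adh5*, an alcohol dehydrogenase present in most cells, stood at 246 and 240 TPM in *Shh*-/- pools 1 and 2 and at 256 and 221 TPM in WT pools 4 and 6 (0.03; adjusted p = 0.862). *Fabp5*, a fatty acid-binding protein that can also carry retinoic acid, stood at 230 and 278 TPM against 236 and 261 TPM (0.02; adjusted p = 0.922). Both of these overlapped between the genotypes. *Rxrb*, the most abundant retinoid X receptor, stood at 41.2 and 49.4 TPM against 33.3 and 31.2 TPM (0.47 ± 0.14 SE; adjusted p = 0.144), and the corepressor *Ncor1* at 72.6 and 85.4 TPM against 71.9 and 97.9 TPM (-0.09; adjusted p = 0.778).

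The pathway genes with the largest differences besides *Cyp26c1* rested on 1 WT pool. *Rbp4*, which carries retinol in blood, stood at 5.58 and 7.55 TPM in *Shh*-/- pools 1 and 2, 168 TPM in WT pool 4 and 6.30 TPM in WT pool 6 (-2.23 ± 1.45 SE; adjusted p = 0.378), and its difference without WT pool 4 was 0.04. *Ttr*, its partner in blood, stood at 0.187 TPM in *Shh*-/- pool 1, was listed at 0 in *Shh*-/- pool 2, and stood at 112 and 2.19 TPM in WT pools 4 and 6 (-4.13 ± 1.65 SE; adjusted p = 0.209). Without WT pool 4 its difference was -1.55, and without WT pool 6 it was -6.70 (adjusted p = 0.043). Genes of yolk sac and liver, picked after their values were seen, were also high in WT pool 4: *Afp* stood at 2358 TPM there, at 17.4 TPM in WT pool 6 and at 1.01 and 0.876 TPM in the mutant pools. Their part in the *Rbp4* and *Ttr* values was not tested.

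Genes known to respond to retinoic acid were split in direction. Of 22 listed genes 20 were tested, 11 with a log2 difference above 0 and 9 below, with a median of 0.07, and *Stra8* was listed at 0 in every library. The test called 2 as higher and 0 as lower, against 0.725% of all tested genes called. *Nr2f1*, an orphan nuclear receptor of neural and mesenchymal progenitors, rose from 59.2 and 50.4 TPM in WT pools 4 and 6 to 152 and 128 TPM in *Shh*-/- pools 1 and 2 (1.33 ± 0.14 SE; limma, adjusted p = 0.0463). *Rarres2*, which encodes the secreted protein chemerin, rose from 7.91 and 7.47 TPM to 31.6 and 23.7 TPM (1.71 ± 0.18 SE; limma, adjusted p = 0.0463). Both calls were lost without any one of the pools, with a pseudocount of 0.1, with no filter and without the mean-variance trend, and that of *Nr2f1* also with the correction for GC content and length.

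The largest negative differences of this list were in *Foxf1* and *Tbx5*, which are also hedgehog or cell type markers. *Foxf1* stood at 0.848 and 9.57 TPM in *Shh*-/- pools 1 and 2 and at 72.3 and 64.6 TPM in WT pools 4 and 6 (-3.97 ± 0.81 SE; adjusted p = 0.0976). *Tbx5*, a transcription factor of heart, forelimb and lung mesoderm, stood at 1.22 and 4.71 TPM against 19.4 and 12.6 TPM (-2.23 ± 0.50 SE; adjusted p = 0.106). Neither passed the threshold, although the genotypes did not overlap. *Meis2*, the most abundant gene of the list, stood at 174 and 173 TPM in the mutants and at 164 and 155 TPM in WT (0.12; adjusted p = 0.419). The 9 *Hox* genes of the list, several of them classical targets of retinoic acid in the hindbrain and trunk, had 5 differences above 0 and 4 below, and none was called (limma; 1 at an unadjusted p under 0.05, where 24.8% of all tested genes were).

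**Figure D4:**
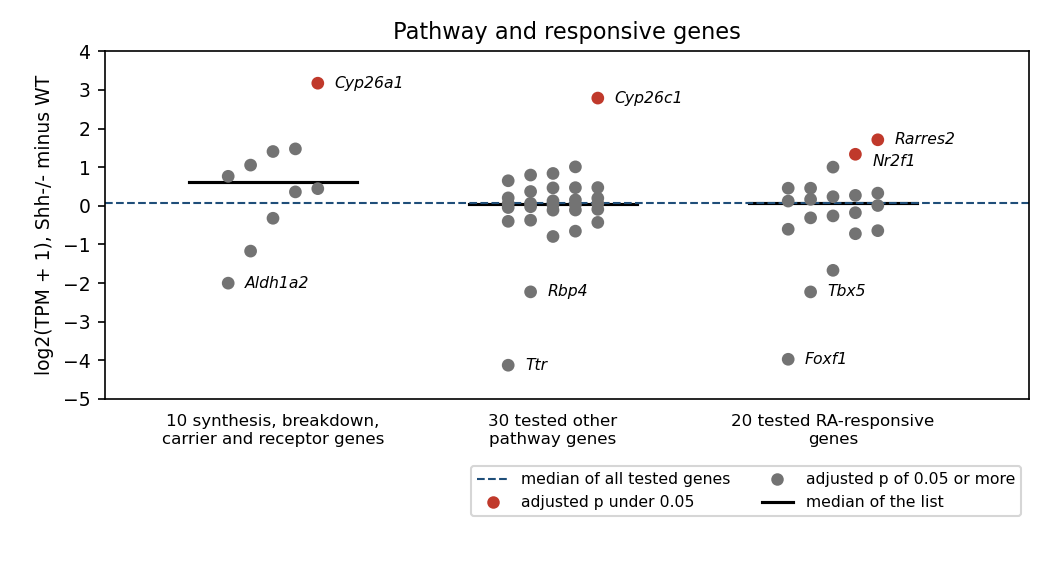
Difference in log2(TPM + 1) between *Shh*-/- and WT for each tested gene of the 10 retinoic acid genes, the pathway list and the responsive list; each point is 1 gene and short bars are list medians. The medians are 0.60, 0.06 and 0.07, and the dashed line is the median of all tested genes, 0.08.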

How the data were processed

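Stranded, poly(A)-selected libraries (NEBNext Ultra II Directional) were single-end sequenced, aligned to mm10 with HISAT2 2.1.0 and assembled into genes with StringTie 1.3.6, per the study's methods and the submitters' processing notes. The authors' tables hold the mean read coverage per gene, a signal that StringTie did not normalize between libraries. The authors also deposited FPKM (coverage scaled by gene length and aligned sequence) and TPM (FPKM scaled to sum to 1000000). Read counts and the StringTie strand setting are not given in the sources used here, so overlapping genes on opposite strands may share reads.

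TPM was summed per gene ID, and log2(TPM + 1) of the 16972 genes with a mean of at least 1 TPM was fitted with limma 3.58.1 (R 4.3.3; lmFit, eBayes with a mean-variance trend), *Shh*-/- minus WT, without covariates, since the study's methods name no test. P-values are two-sided and adjusted over all tested genes by Benjamini-Hochberg, threshold 0.05. They cover the spread between these pools only. The paper reports its own list of genes called between these pools at an adjusted p under 0.05. That list holds more genes than were called here and is not compared here. Aligned megabases were taken from the most common ratio of coverage to FPKM in each library, which 41.8% to 44.8% of the covered genes shared. The mean coverage given for single genes is FPKM scaled back by these megabases. In every library 37 mitochondrial genes were listed at 0. No depth per gene beyond mean coverage was available, so no counting interval is given.

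The 10 genes and the pathway, responsive and cell marker lists were chosen with earlier results of these data known. Genes named from the lists are those past the threshold, the most abundant of each role, and the 3 with the largest absolute difference. For the member with the largest rise and that with the largest fall, the 3 genes of most similar profile are named. Exceptions are named as such, and 1 gene that this rule gives is not reported here. Promoter windows came from RefSeq (GRCm38.p6) and matched 7 of the 10 symbols. The fit was tested on simulated data. Alternatives were a pseudocount of 0.1, no filter or a mean of at least 5 TPM, quantile normalization, median centring, FPKM, no trend, robust eBayes, a spline correction for GC content and length (5 degrees of freedom, 16887 genes), and leaving out each pool.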

Additional observations from a re-analysis of the deposited data

How the results depend on the processing

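Each difference of the 10 genes kept its sign under every alternative that gave a value (*Aldh1a3* was not tested at a mean of at least 5 TPM), and the side of the threshold changed for *Cyp26a1* alone, in 5 alternatives. Of all genes, 123 were called by limma (24.8% at an unadjusted p under 0.05), 69 with a pseudocount of 0.1 and 858 at an adjusted p under 0.10, and 0 of 28524 with no filter, where 5011 had an unadjusted p under 0.05. The other planned settings gave 82 to 127. Leaving out 1 pool gave 0 to 16 calls, with 2070 to 3761 genes at an unadjusted p under 0.05. The pool left alone was then assumed to vary like the others.

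Of the 10 genes, 1 was called, 6 at an adjusted p under 0.10, 0 with no filter (8 at an unadjusted p under 0.05) and 0 to 0 without 1 pool (6 to 8 unadjusted). Of the pathway list, 1 was called, but 0 with a pseudocount of 0.1, 0 with no filter, 0 at a mean of at least 5 TPM and 0 with the correction for GC content and length (6 to 8 unadjusted). Without 1 pool it was 0 to 1, the 1 being *Ttr*, lower without WT replicate 6. Of the responsive list, 2 were called, but 0 with a pseudocount of 0.1, 0 with no filter, 0 by eBayes without trend (7 unadjusted in each), 1 with the correction for GC content and length (*Rarres2*) and 0 to 0 without 1 pool (7 to 10 unadjusted). Fewer pools leave fewer residual degrees of freedom, and the causes of the other changes were not tested. No paired analysis was possible because the genotypes share no replicate numbers. The shallow *Shh*-/- pool 1 and the mean coverage under 4 reads per base in WT limit the precision of the *Cyp26a1* and *Aldh1a3* ratios.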

Other observations

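The following pathway and responsive genes, picked after their values were seen, did not pass the threshold. *Dhrs3*, which reduces retinaldehyde back to retinol and is induced by retinoic acid in embryos, stood at 5.69 and 11.9 TPM in *Shh*-/- pools 1 and 2 and at 15.2 and 15.0 TPM in WT pools 4 and 6 (log2 difference -0.79 ± 0.33 SE; limma, adjusted p = 0.222). Its lower value in *Shh*-/- pool 1 was in the same direction as that of *Aldh1a2*. *Zfp423*, a zinc finger protein that acts with retinoic acid receptors, stood at 36.2 and 25.9 TPM in the mutants and at 16.1 and 13.4 TPM in WT (1.01 ± 0.21 SE; limma, adjusted p = 0.0977). *Hoxa3*, a patterning gene of the pharyngeal arches, stood at 43.9 and 33.5 TPM in the mutants and at 21.1 and 16.4 TPM in WT (2.06-fold between the means; limma, adjusted p = 0.0957), while *Hoxa5*, known for its role in respiratory tract mesenchyme, stood at 8.47 and 14.1 TPM in the mutants and at 17.8 and 17.5 TPM in WT (-0.64 ± 0.25 SE; limma, adjusted p = 0.204). *Stra6*, the cell surface receptor that takes up retinol from its blood carrier, overlapped between the genotypes, with 29.2 and 30.8 TPM in the mutants and 37.4 and 28.2 TPM in WT (-0.11; limma, adjusted p = 0.697).

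The yolk sac and liver genes seen in WT pool 4 also included *Apoa1*, at 287 TPM there, 4.60 TPM in WT pool 6 and 0.329 and 0.326 TPM in *Shh*-/- pools 1 and 2, and *Apob*, at 100.4 TPM there and 0.711 TPM or less in the other 3 pools. *Alb* was at 1.21 TPM in WT pool 4 and listed at 0 in WT pool 6 and *Shh*-/- pool 2.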
